A study of Mus musculus with 10 samples.

Results

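Dendritic cells are rare leukocytes that take up antigen in tissues and present it to T cells. Type 1 classical dendritic cells (cDC1) cross-present antigen of dead cells, type 2 classical dendritic cells (cDC2) and monocyte-derived dendritic cells serve mainly helper T cells, and plasmacytoid dendritic cells (pDC) make type I interferon. After maturation, classical dendritic cells display costimulatory proteins and use the receptor CCR7 to leave the tissue for the lymph node. The 9 genes described here mark these populations and states: Flt3, Zbtb46, Clec9a, Batf3, Siglech, Cd209a, Ccr7, Fscn1 and Cd83. They were chosen by gene symbol, each had 1 probe set with that symbol alone, and they are 9 of 19938 genes measured.

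The Exercise group had 5 melanoma tumours and the non-Exercise group 5, all of male mice, and each tumour's RNA was read on 1 Affymetrix array that covers whole transcripts. The series title names voluntary exercise and natural killer cells. No label used here gives strain, age or melanoma line, or says that each array number is a separate animal. The p-values therefore cover only the variation among these samples, which may be technical. Levels are the deposited log2 probe set values after quantile normalization, and changes are Exercise minus non-Exercise on the log2 scale, with the standard error (SE) after ±. Because probe sets differ in how they hybridise, a gene's level was compared between arrays only. A percentile of mean level marks a probe set as dim or bright on these arrays and does not order transcript amounts between genes. In whole-tumour RNA, more cells of a type and more RNA per cell cannot be told apart.

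The tumours carried melanocyte transcripts, with Tyr, the rate-limiting enzyme of melanin synthesis, at percentile 95.4 and Sox10, a neural crest transcription factor, at percentile 97.7 of the mean levels of all genes. Exercise arrays 306, 309 and 310 stood apart from the rest by hepatocyte transcripts. Alb, which encodes albumin, was at 12.77, 12.97 and 12.28 in these arrays, against 7.05 and 7.47 in Exercise arrays 300 and 301 and 6.84 to 9.22 in the non-Exercise arrays. The changes of the dendritic cell genes and of their pairs are therefore given with and without these 3 arrays.

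Of the 9 dendritic cell genes, Ccr7, Cd83 and Flt3 rose in the Exercise tumours, none fell, and 6 did not pass a limma adjusted p of 0.05. Over all genes 6.35% were higher and 10.6% lower by the same rule, 17% in either direction. The median change of the 9 genes was 0.31, beside -0.024 over all genes, and 8 of the 9 changes were positive. Without arrays 306, 309 and 310, an alternative added with the data known, 0 of the 9 genes passed in either direction, where 3.74% of all genes were higher and 8.06% lower, and the median change of the 9 was 0.18.

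**Figure D1:**
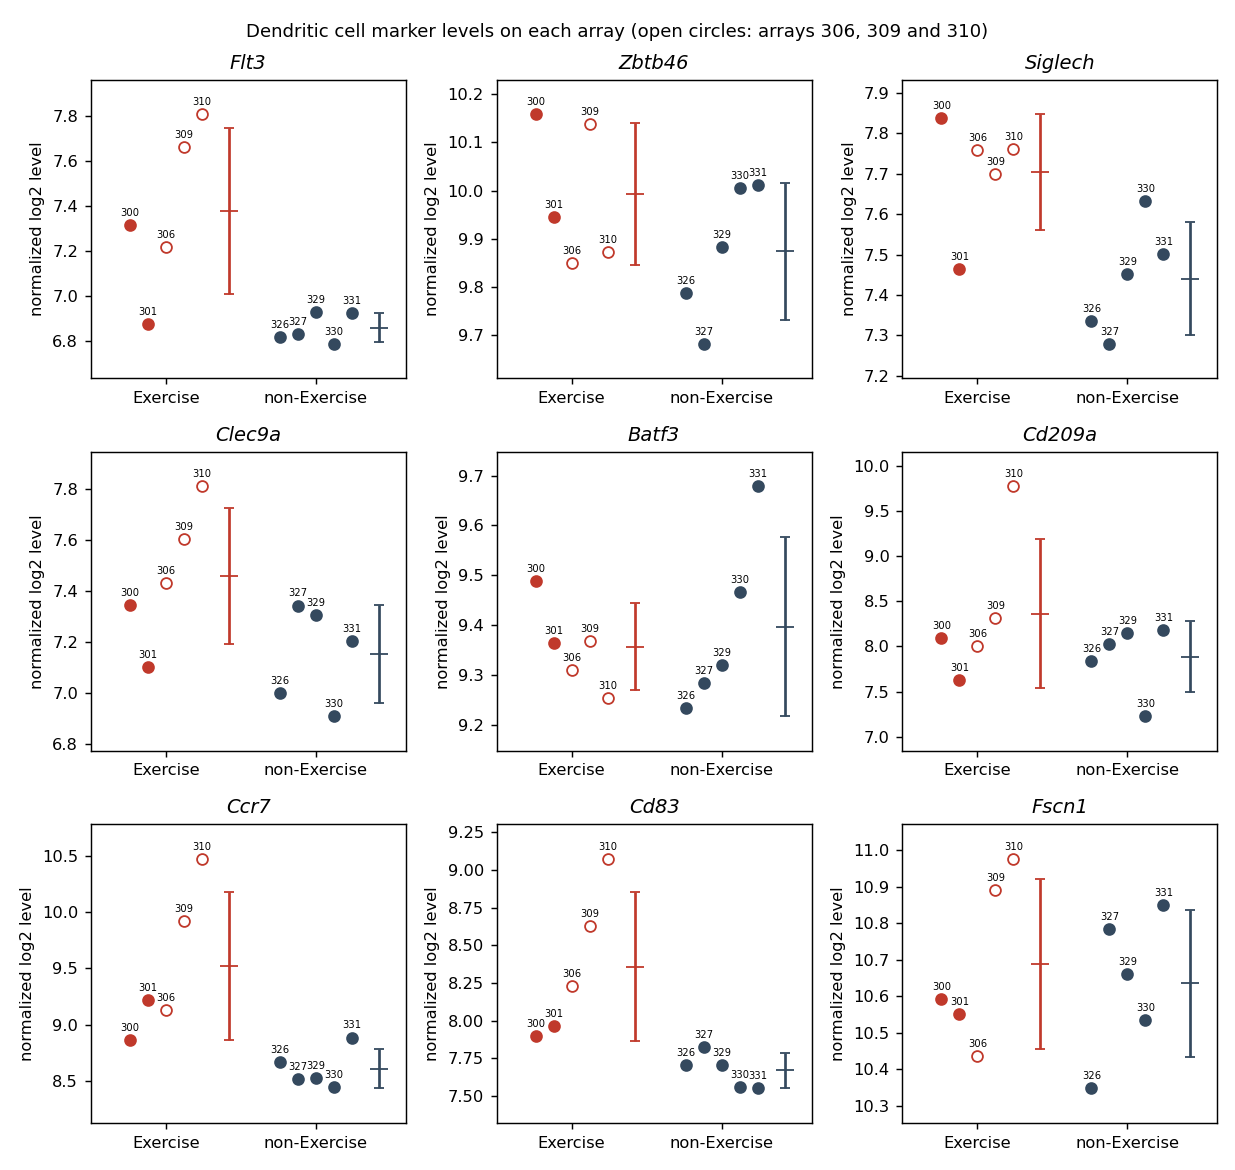
Normalized log2 level of each dendritic cell marker on every array, Exercise left and non-Exercise right, numbered by array, with the mean and SD of each group (n = 5 each) beside the points; the axes start at different levels. Open circles are Exercise arrays 306, 309 and 310, and array 310 is the highest of all arrays for 6 of the 9 genes.

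Ccr7, Cd83 and Fscn1 are the genes of mature, migrating dendritic cells. Ccr7, the receptor for the lymph node chemokines CCL19 and CCL21, was at 8.86, 9.22, 9.13, 9.92 and 10.47 in Exercise arrays 300, 301, 306, 309 and 310, against 8.67, 8.51, 8.53, 8.44 and 8.88 in non-Exercise arrays 326, 327, 329, 330 and 331. In 4 of 5 Exercise tumours the level lay above every non-Exercise tumour, and array 300 lay just below the highest of them. The means were 9.52 ± 0.66 and 8.61 ± 0.18 (SD, n = 5 each), a change of 0.91 ± 0.24 or 1.88-fold (limma adjusted p = 0.0176). Ccr7 had the largest change of the 9 genes, and it missed the threshold with robust variances (limma adjusted p = 0.0767).

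Cd83, an immunoglobulin-like surface protein of activated dendritic cells, was at 7.90, 7.96, 8.23, 8.63 and 9.08 in the Exercise arrays in the same order, against 7.71, 7.83, 7.71, 7.56 and 7.55 in the non-Exercise arrays. It was the only member of the 9 whose groups did not overlap. Over all genes 3.74% had every Exercise array on top and 8.33% had every Exercise array at the bottom. The means were 8.36 ± 0.49 and 7.67 ± 0.12 (SD, n = 5 each), a change of 0.69 ± 0.18 or 1.61-fold (limma adjusted p = 0.0194). Activated B cells and macrophages are also known to make Cd83, and T cells Ccr7, so neither gene marks dendritic cells alone.

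Fscn1 encodes fascin, which bundles actin in the dendrites of mature dendritic cells and is also made by many tumour and nerve cells. It was at 10.59, 10.55, 10.44, 10.89 and 10.98 in the Exercise arrays, against 10.35, 10.78, 10.66, 10.53 and 10.85 in the non-Exercise arrays. The groups overlapped almost entirely, with a change of 0.054 ± 0.11 (95% interval -0.19 to 0.30, limma adjusted p = 0.839), and the change was -0.029 with arrays centred on their medians and -0.064 without arrays 306, 309 and 310 (limma adjusted p = 0.780).

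The 3 mature markers were set against each other within each array, among 5 pairs of members listed for the same role. Because tumour cells can also make Fscn1, a difference from it need not lie within dendritic cells. The change of Ccr7 exceeded that of Fscn1 by 0.86, and 4 of 5 Exercise tumours exceeded every non-Exercise tumour (exact permutation p = 0.0159, two-sided; 0.0397 adjusted over the 5 pairs; 252 splits allow no p under 0.00794). For Cd83 against Fscn1 the difference was 0.64, with the same exact permutation p of 0.0159 and again 4 of 5 arrays above. Ccr7 and Cd83 differed by 0.22 (exact permutation p = 0.175), and by 0.17 without arrays 306, 309 and 310 (exact permutation p = 0.476). Without these arrays the differences from Fscn1 were 0.50 for Ccr7 and 0.32 for Cd83, and neither passed (exact permutation p = 0.0952 and 0.238, where 21 splits allow no p under 0.0476).

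Flt3 and Zbtb46 belong to dendritic cells and their precursors as a lineage. Flt3, the receptor tyrosine kinase whose ligand drives dendritic cell development, was at 7.32, 6.88, 7.22, 7.66 and 7.81 in the Exercise arrays, against 6.82, 6.83, 6.93, 6.79 and 6.92 in the non-Exercise arrays. The non-Exercise values lay close together, 4 Exercise arrays lay above them, and array 301 lay among them. The means were 7.38 ± 0.37 and 6.86 ± 0.064 (SD, n = 5 each), a change of 0.52 ± 0.14 or 1.43-fold (limma adjusted p = 0.0232). Flt3 was dim, at percentile 8.44 of mean level. It no longer passed once array 309, 326, 327 or 330 was omitted (limma adjusted p 0.00205 to 0.0589 over the 10 omissions).

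Zbtb46, a zinc finger repressor of classical dendritic cells that endothelial cells also make, was at 10.16, 9.94, 9.85, 10.14 and 9.87 in the Exercise arrays, against 9.79, 9.68, 9.88, 10.004 and 10.01 in the non-Exercise arrays. The groups overlapped, and the change of 0.12 ± 0.086 did not pass (95% interval -0.066 to 0.30, limma adjusted p = 0.421). Zbtb46 was highest in array 300 and lowest of the Exercise arrays in array 306, an order unlike that of Flt3. The difference between the changes of Flt3 and Zbtb46 was 0.40 and did not pass after adjustment (exact permutation p = 0.0476, 0.0794 adjusted over the 5 pairs). It was 0.061 without arrays 306, 309 and 310 (exact permutation p = 0.524), and there the change of Zbtb46 was 0.18 (limma adjusted p = 0.316).

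Clec9a and Batf3 are genes of cDC1. Clec9a, the lectin receptor with which cDC1 bind actin exposed on dead cells, was at 7.35, 7.10, 7.43, 7.61 and 7.81 in the Exercise arrays, against 7.003, 7.34, 7.31, 6.91 and 7.21 in the non-Exercise arrays. Array 301 lay among the non-Exercise arrays, the other 4 above them, with array 300 barely above. The change was 0.31 ± 0.13 and did not pass (95% interval 0.028 to 0.58 before adjustment, limma adjusted p = 0.129); without Exercise array 301 it was 0.39 and passed (limma adjusted p = 0.0373, the lowest of 0.0373 to 0.270 over the omissions). It was 0.070 without arrays 306, 309 and 310 (limma adjusted p = 0.807). Clec9a was also dim, at percentile 11.3.

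Batf3, the transcription factor that cDC1 need for their development, was at 9.49, 9.36, 9.31, 9.37 and 9.25 in the Exercise arrays, against 9.23, 9.28, 9.32, 9.47 and 9.68 in the non-Exercise arrays. All Exercise values lay within the non-Exercise range. The change of -0.040 ± 0.088 did not pass (95% interval -0.23 to 0.15, limma adjusted p = 0.848), and array 310, the highest for Clec9a, was the lowest Exercise array for Batf3. The difference between the changes of Clec9a and Batf3 was 0.35 (exact permutation p = 0.103). It was 0.041 without arrays 306, 309 and 310 (exact permutation p = 0.810), and there the change of Batf3 was 0.030 (limma adjusted p = 0.912).

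Siglech, a sialic acid-binding lectin of mouse pDC, was at 7.84, 7.46, 7.76, 7.70 and 7.76 in the Exercise arrays, against 7.34, 7.28, 7.45, 7.63 and 7.502 in the non-Exercise arrays. In 4 Exercise tumours it exceeded every non-Exercise tumour, and its highest value was in array 300, which lacked the hepatocyte transcripts. The change of 0.26 ± 0.096 did not pass (95% interval 0.058 to 0.47 before adjustment, limma adjusted p = 0.0758), and it passed at 0.32 without Exercise array 301 (limma adjusted p = 0.0304, the lowest of 0.0304 to 0.176 over the omissions). Its change was 0.21 without arrays 306, 309 and 310 (limma adjusted p = 0.364).

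Cd209a, a mouse homologue of the pathogen receptor DC-SIGN found on monocyte-derived dendritic cells and cDC2, varied most. It was at 8.09, 7.63, 8.01, 8.32 and 9.77 in the Exercise arrays, against 7.84, 8.03, 8.15, 7.23 and 8.19 in the non-Exercise arrays. Array 310 alone lay far above the others, at 9.77. The change of 0.48 ± 0.32 did not pass (limma adjusted p = 0.364), and it was 0.13 without Exercise array 310 and -0.026 without arrays 306, 309 and 310.

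**Figure D2:**
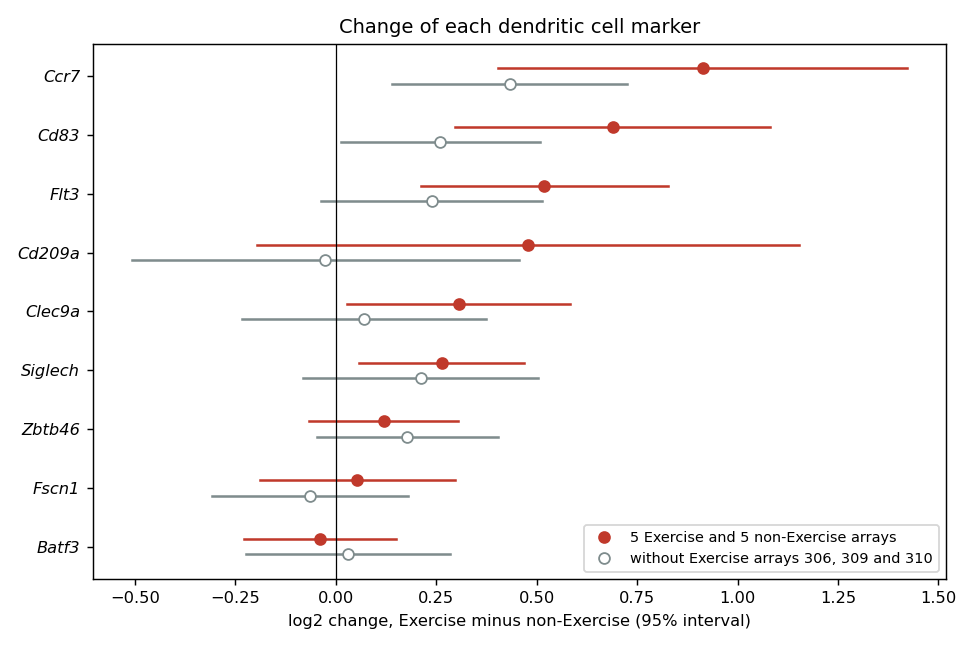
Log2 change, Exercise minus non-Exercise, of each dendritic cell marker with its unadjusted 95% interval, from all arrays (filled) and without Exercise arrays 306, 309 and 310 (open, 2 against 5 arrays). The changes of Ccr7, Cd83 and Flt3 are 0.91, 0.69 and 0.52 with all arrays and 0.43, 0.26 and 0.24 without the 3.

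The range was wider among the Exercise tumours for 7 of the 9 genes. It was barely wider for Siglech (0.37 against 0.35) and Fscn1 (0.54 against 0.50). Over all genes the Exercise arrays were also less alike, with r of 0.976 to 0.990 between them, against 0.987 to 0.996 between non-Exercise arrays. The share of all genes with a wider Exercise range was not counted. Array 310 was the highest of all arrays for Flt3, Clec9a, Cd209a, Ccr7, Fscn1 and Cd83, and array 301 was the lowest Exercise array for Flt3, Clec9a, Siglech and Cd209a. In the Exercise arrays without hepatocyte transcripts, 300 and 301, Cd83 at 7.90 and 7.96 lay above every non-Exercise array. Of the 2, only array 301 did so for Ccr7 and only array 300 for Flt3. Without arrays 306, 309 and 310 the changes were 0.43 for Ccr7 (limma adjusted p = 0.0570), 0.26 for Cd83 (limma adjusted p = 0.173) and 0.24 for Flt3 (limma adjusted p = 0.269). The calls of Ccr7 and Cd83 held whichever array was omitted (limma adjusted p at most 0.0466 for Ccr7 and 0.0494 for Cd83).

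**Figure D3:**
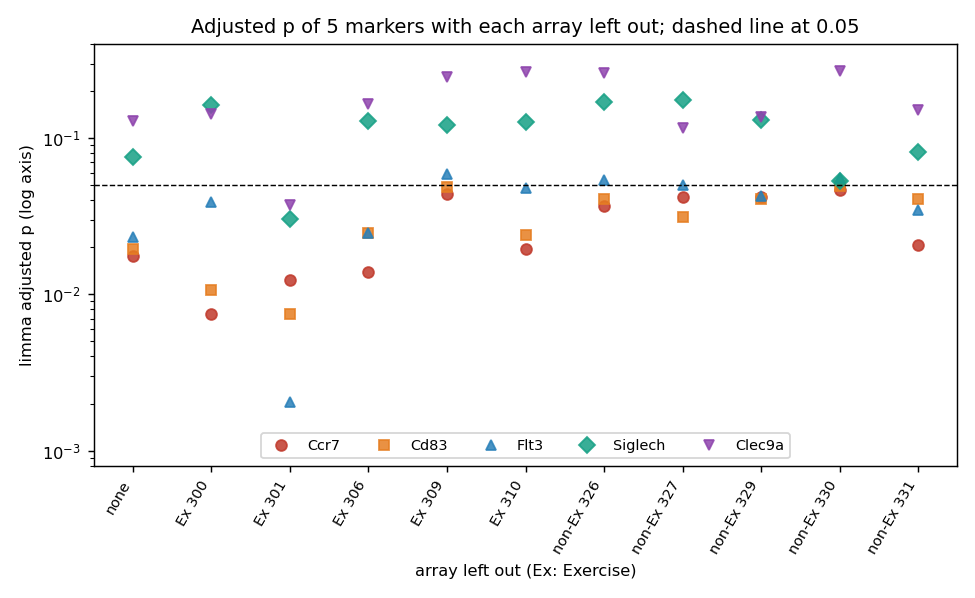
Limma adjusted p, on a log axis, of 5 dendritic cell markers with all arrays and with each array left out in turn; the dashed line is 0.05. Ccr7 and Cd83 stay under the line in all 11 fits, Flt3 crosses it in 4, and Siglech and Clec9a pass only without Exercise array 301.

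Genes whose levels ran most like each marker over the 10 arrays were listed by Pearson r, as a description that includes the difference between the groups. Picking the highest r among 19938 genes over 10 arrays favours high values. Whether the listed genes share cells or control with the markers was not tested. Nearest to Flt3 were Fmnl1 (r = 0.997, Spearman rho = 0.952), Irf5 (r = 0.989, rho = 0.891) and Esyt1 (r = 0.988, rho = 0.927), over n = 10 arrays. Nearest to Ccr7 were Rhbdf2 (0.968), Prkcd (0.965) and Samsn1 (0.964), and to Cd83 Stat4 (0.984), Pilrb2 (0.976) and Clec2g (0.972). For Clec9a they were Lbp (0.986), Dram1 (0.973) and Cdo1 (0.971). For Cd209a they were Stxbp6 (0.979), Mgl2 (0.955), a lectin gene counted below with the cDC2 genes, and D16Ertd472e (0.954). With each array left out in turn, these r values fell as low as 0.904, 0.798 and 0.822 in the same order. For Siglech the nearest were Cplane1 (0.906), Chd8 (0.901) and Cdk6 (0.887), and for Zbtb46 Sva (0.968), Krt87 (0.962) and Ighm (0.953). For Batf3 the nearest were Pitx1 (0.952), Cfap61 (0.950) and Adamts3 (0.946), and for Fscn1 Syn1 (0.910), Lrrc17 (0.892) and Madd (0.889). Among the markers themselves r was highest between Ccr7 and Cd83 (0.949), Flt3 and Cd83 (0.921), Flt3 and Ccr7 (0.898), and Flt3 and Clec9a (0.896). By Spearman rho the order differed, led by Flt3 and Clec9a (0.915), Zbtb46 and Batf3 (0.879), and Cd209a and Fscn1 (0.867). There Ccr7 and Cd83 were at 0.770, Flt3 and Ccr7 at 0.758 and Flt3 and Cd83 at 0.709.

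Other genes of dendritic cell maturation rose in part. Of 22 measured, 7 rose, none fell and 15 did not pass, with a median change of 0.32. Cd86, a costimulatory ligand of CD28, rose by 0.93 ± 0.18 (limma adjusted p = 0.00394), Samsn1, an adaptor protein gene, by 0.83 ± 0.21 (limma adjusted p = 0.0137), Cd274, which encodes PD-L1, by 0.84 ± 0.22 (limma adjusted p = 0.0166), and Traf1, a signalling adaptor of TNF receptors, by 0.72 ± 0.19 (limma adjusted p = 0.0175). For Cd86, Samsn1 and Traf1 the groups did not overlap. Without arrays 306, 309 and 310, 2 of the 22 genes were higher and 1 lower, Cd86 still passed at 0.61 and Samsn1 (0.41), Cd274 (0.21) and Traf1 (0.34) did not.

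Growth factors, attractants and receptors that supply or guide dendritic cells gave 5 increases and no decrease among 15 measured genes. Their median change was 0.23. Ccl3, a chemokine for monocytes and dendritic cell precursors, rose by 1.28 ± 0.20 (limma adjusted p = 0.000731), Csf2rb, the beta chain of the GM-CSF receptor, by 1.01 ± 0.17 (limma adjusted p = 0.00146), Csf1, the macrophage growth factor, by 0.85 ± 0.10 (limma adjusted p = 0.000218), and Csf2ra, the alpha chain of the GM-CSF receptor, by 0.49 ± 0.13 (limma adjusted p = 0.0154). Without the 3 arrays 3 of the 15 were higher, Ccl3 at 0.74, Csf2rb at 0.84 and Csf1 at 0.68. Flt3l, the ligand of Flt3, differed by 0.23 (limma adjusted p = 0.465) and Ccl19, a ligand of CCR7, by 0.21 (limma adjusted p = 0.166), both named outside the rule for listed genes because they bind members.

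Of 12 other cDC1 genes 3 rose and none fell, with a median change of 0.22. Wdfy4, a gene cDC1 need for cross-presentation, rose by 0.72 ± 0.14 (limma adjusted p = 0.00375), Btla, an inhibitory receptor of lymphocytes and cDC1, by 0.49 ± 0.12 (limma adjusted p = 0.0142) and Irf8, a transcription factor of cDC1, pDC and monocytes, by 1.02 ± 0.30 (limma adjusted p = 0.0308). Wdfy4 passed without the 3 arrays (0.40, limma adjusted p = 0.0462), while Btla (0.24) and Irf8 (0.19) did not. Irf8 also missed the threshold when any of arrays 306, 309, 310, 327, 329, 330 and 331 was omitted (limma adjusted p 0.000512 to 0.0714 over the omissions). Xcr1, the chemokine receptor that defines cDC1 and was likewise named outside the rule, was at 7.89 ± 0.12 and 7.67 ± 0.21 (SD, n = 5 each), a change of 0.22 that did not pass (limma adjusted p = 0.178).

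Of 14 genes of cDC2 and monocyte-derived dendritic cells 1 rose and none fell, where 6.35% of all genes were higher and 10.6% lower. The gene was Notch2, a receptor that cDC2 and many other cells carry, at 0.39 ± 0.075 (limma adjusted p = 0.00344). It was 0.35 without the 3 arrays, which also passed. The changes of the 14 genes ran from -0.12 to 0.69 with a median of 0.17, and 11 were positive and 3 negative. Of 12 measured pDC genes 3 rose and none fell, the nucleic acid receptors Tlr9 at 0.66 ± 0.19 (limma adjusted p = 0.0280) and Tlr7 at 0.67 ± 0.22 (limma adjusted p = 0.0474), and Irf7, a regulator of type I interferon, at 0.89 ± 0.29 (limma adjusted p = 0.0470). All 3 are made by other leukocytes too. The changes of the 12 pDC genes ran from -0.29 to 0.89 with a median of 0.15, and 10 were positive and 2 negative. None of the pDC genes passed without the 3 arrays, and Tlr9, Tlr7 and Irf7 each missed the threshold in 7 of the 10 single-array omissions, those of 309 and 310 among them. The limma adjusted p reached 0.0670 for Tlr9, 0.115 for Tlr7 and 0.121 for Irf7.

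Most pan-leukocyte and macrophage genes rose in the Exercise tumours as well. Of 7 pan-leukocyte genes 5 rose, with a median change of 0.79, and Ptprc, which encodes CD45, changed by 1.16 ± 0.27 (limma adjusted p = 0.00921), more than any dendritic cell marker. Of 11 measured macrophage genes 10 rose and none fell, with a median of 0.91, among them Msr1 (1.17), C1qc (1.06), C1qb (1.03) and Cd68 (0.76). Without arrays 306, 309 and 310, 3 of the 7 pan-leukocyte genes and 5 of the 11 macrophage genes were higher, with medians of 0.47 and 0.52. Ptprc did not pass then (0.62, limma adjusted p = 0.132) or with robust variances (limma adjusted p = 0.0554), and C1qb missed the threshold without the 3 arrays (limma adjusted p = 0.0514). The mean centred level of the 9 dendritic cell markers lay between -0.12 and 0.63 in the Exercise arrays and between -0.29 and -0.042 in the non-Exercise arrays. The pan-leukocyte level lay between -0.26 and 0.85 in the Exercise arrays and between -0.60 and -0.31 in the non-Exercise arrays, and the macrophage level between -0.31 and 0.96 and between -0.79 and -0.27 in the same order. Array 301 was the lowest Exercise array, and arrays 309 and 310 the highest, in all 3. The part of these cells in the dendritic cell results was not tested.

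The hepatocyte level was 1.04 to 1.64 in arrays 306, 309 and 310, -0.77 and -0.74 in the other Exercise arrays and -0.66 to -0.33 in the non-Exercise arrays. Of the 12 hepatocyte genes 1 rose, Apoc3 at 1.25 (limma adjusted p = 0.0467, up to 0.109 with 1 array omitted), and none fell. With Exercise array 300 or 301 omitted 10 of the 12 were higher, and with any other array omitted 0 were. By array, the hepatocyte level was 1.64 in 306, 1.59 in 309 and 1.04 in 310, while Alb was highest in 309. Ccr7, Cd83, Flt3 and the mean dendritic cell level (0.022) were lower in array 306 than in arrays 309 and 310. The mean dendritic cell levels of arrays 309 and 310 were 0.34 and 0.63. Ccr7, Cd83 and Flt3 averaged 9.04, 7.93 and 7.10 in arrays 300 and 301, against 9.84, 8.65 and 7.56 in arrays 306, 309 and 310. T cell genes were high in the same 3 arrays, at 0.51 to 0.55, against -0.37 and -0.27 in the other Exercise arrays and -0.31 to -0.023 in the non-Exercise arrays, and 0 of 6 measured passed limma's test (Cd8b1 0.60, Cd3g 0.68; limma adjusted p = 0.156 and 0.172). With array 301 omitted Cd8b1 and Cd3g both passed (limma adjusted p = 0.0209 and 0.0405), with array 300 omitted Cd3g alone (limma adjusted p = 0.0492), and without arrays 306, 309 and 310 neither did (-0.21 and -0.26). The part of the tissue carried by these 3 tumours in the rise of Ccr7, Cd83 and Flt3 was not tested beyond the values without them.

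**Figure D4:**
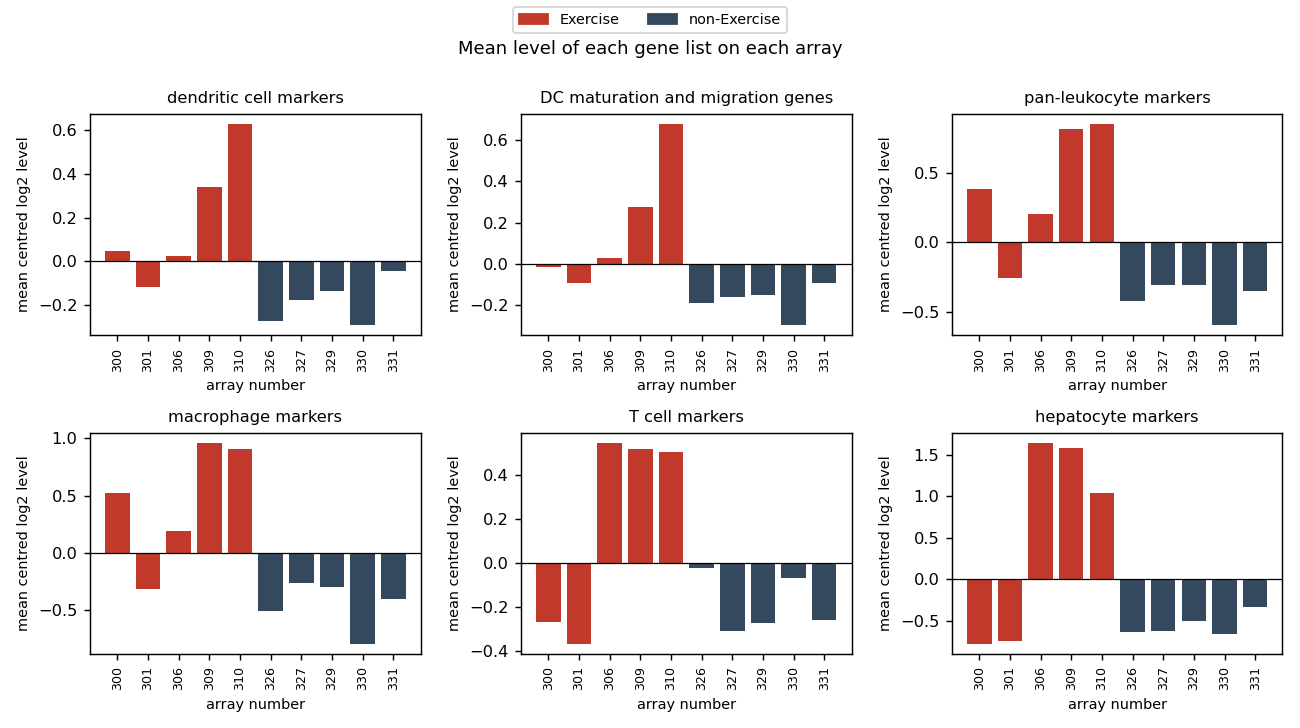
Mean centred log2 level of 6 gene lists on each array, Exercise arrays 300 to 310 left and non-Exercise arrays 326 to 331 right; the vertical axes differ between panels. Dendritic cell, maturation, leukocyte and macrophage genes are highest in Exercise arrays 309 and 310, while hepatocyte and T cell genes are high in 306, 309 and 310.

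Sequences from 250 bases before to 50 after the gene start were available for 7 of the 9 genes (RefSeq, GRCm38.p6). A pair of them is shown, Flt3, which rose, and Fscn1, which did not pass, with capitals for matches on either strand to the E-box CACGTG, the cyclic AMP response element TGACGTCA, the AP-1 site TGANTCA, the NF-kB motif and the TATA box TATAAA. Flt3 is chr5:147400440-147400739 on the minus strand and Fscn1 chr5:142960105-142960404 on the plus strand.
Flt3: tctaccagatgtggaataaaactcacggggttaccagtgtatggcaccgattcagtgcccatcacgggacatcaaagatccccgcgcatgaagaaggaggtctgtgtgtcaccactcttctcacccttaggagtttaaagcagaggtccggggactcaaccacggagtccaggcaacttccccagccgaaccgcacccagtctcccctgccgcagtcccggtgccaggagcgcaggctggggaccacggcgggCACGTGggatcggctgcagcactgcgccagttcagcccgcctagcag
Fscn1: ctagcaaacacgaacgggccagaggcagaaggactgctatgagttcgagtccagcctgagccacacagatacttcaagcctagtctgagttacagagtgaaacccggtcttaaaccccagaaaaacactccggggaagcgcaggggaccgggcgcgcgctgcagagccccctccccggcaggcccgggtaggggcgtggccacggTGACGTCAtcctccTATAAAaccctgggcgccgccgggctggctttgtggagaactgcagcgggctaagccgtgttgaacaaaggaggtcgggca
The Flt3 window held 1 E-box, which begins at base 4 of the transcript and which 7.15% of 32851 promoter windows hold. The Fscn1 window held 1 cyclic AMP response element and 1 TATA box, 45 and 31 bases before the start, which 1.79% and 13.6% of windows hold. None of the 7 windows held an NF-kB match, found in 8.46% of windows. Ccr7 and Cd83, which rose, had no window available and were not searched. E-boxes were also in the windows of Batf3 and Siglech, and an AP-1 match in that of Zbtb46 (7.81% of windows). The TATAAA matches of Clec9a and Cd209a began at -226 and -184, farther from the start than in Fscn1. Both lay on the strand opposite to the gene. These matches are letters in a window and were not measured as binding.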

How the data were processed

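The authors deposited 1 table of log2 probe set values for 10 arrays of 35556 probe sets, summarised with PLIER per the submitters' processing notes; the log base is taken from the range of the values (4.66 to 14.55), and no version or between-array step is stated there. Array medians differed by 0.126, and the table was quantile normalized. Of the probe sets 21789 had 1 gene symbol, of which 21698 matched RefSeq by Entrez identifier, and the highest-mean probe set was kept per gene, giving 19938 genes. Array number limits the precision. No pair of arrays shared more than 1 exact value, and no batch was recorded.

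Genes were fitted with limma 3.58.1 (lmFit, eBayes with intensity trend, R 4.3.3), two-sided, with Benjamini-Hochberg adjustment over all genes at 0.05. On 10 simulated data sets of this comparison, 200 of 19938 genes were changed. There the fit recovered 71.6% of the changes set to 0.5 and 96.8% of those set to 1, with 8 false calls on average. In the data 3384 genes were called, and 7 of the 9 dendritic cell genes had the wider range in Exercise tumours. Whether the rates hold with so many called genes and such unequal spread was not tested. The members, gene lists, pairs of members and the choice of 3 arrays to leave out were made with earlier results of these data known. Named genes were all members, up to 4 called genes per list (2 with the smallest p where none passed), the 3 most alike genes per member, Alb and Ptprc; Flt3l, Ccl19 and Xcr1 were named after their values were seen. Promoter sequences came from RefSeq. Some listed genes, among them Runx2, Klk1, Cacnb3, Il4i1, Ccl21a, Trac and Lck, were not analysed here. Plots used matplotlib 3.10.9 (Python 3.11.15).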

Additional observations from a re-analysis of the deposited data

How the results depend on the processing

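The count of 3 higher and 0 lower dendritic cell genes was 4 higher with the table as deposited, where Siglech passed too (0.33), 3 with arrays centred on their medians, the mean of probe sets, no intensity trend, array weights or all probe sets fitted singly, and 2 with robust variances, where Ccr7 did not pass (limma adjusted p = 0.0767). It was 2 of 6 with genes under the 20th percentile of mean level left out and 1 of 4, Ccr7, under the 40th, since the filter removes the dim members. Of all genes kept by these filters, 1256 of 15950 and 1181 of 11963 were higher. Of all 19938 genes, 1370 were higher as deposited and 1032 with robust variances. Leaving out 1 array gave 2 to 5 higher and 0 lower members; the 5 came without Exercise array 301. All genes then numbered 857 to 1528 higher and 1435 to 2333 lower, with 2 to 5 cDC1, 0 to 4 pDC and 4 to 8 maturation genes higher. Of the pDC genes 0 to 1 were lower in these fits. Without the 3 Exercise arrays with hepatocyte transcripts 0 members and 746 genes were higher. An exact Wilcoxon test per gene called 0 genes in either direction, with 1467 higher and 2931 lower at an unadjusted p under 0.05; the smallest p it allows is 0.00794. Centring on medians turned the split of all calls to 938 higher and 3076 lower, 23.4% higher against 37.4%. Changes near 0 turned sign: Fscn1 was -0.029 with median centring, -0.064 without the 3 arrays and -0.018 to 0.12 leaving out 1 array; Batf3 was 0.036 with array weights, 0.030 without the 3 arrays and -0.080 to 0.031 leaving out 1 array. Cd207 was 0.013 with array weights. Without the 3 arrays Cd209a was -0.026, Cd8b1 -0.21, Cd3g -0.26 and Alb -0.64. The cause was not tested. No paired analysis was possible because the groups share no array numbers. Dim signal limits Flt3, Clec9a and Siglech, which lay at percentiles 8.44, 11.3 and 16.4 of mean level, and no detection calls were used here.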

Other observations

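Genes of other cells that could lie in the tumours were also counted. Of 7 keratinocyte and Langerhans cell genes 0 passed limma's test in either direction, and Cd207, which encodes langerin of Langerhans cells, averaged 7.96 ± 0.12 in Exercise and 8.04 ± 0.18 in non-Exercise tumours (SD, n = 5 each), which differ by -0.078 (limma adjusted p = 0.699); Krt14, a basal keratin, differed by -0.11 (limma adjusted p = 0.493). Of 6 measured B cell genes 1 rose, Cd79b, a chain of the B cell receptor, at 0.35 ± 0.098 (limma adjusted p = 0.0256), with a list level of -0.14 to 0.11 for Exercise tumours and -0.12 to 0.055 for non-Exercise tumours. Cd79b missed the threshold once array 309, 326 or 329 was omitted (limma adjusted p 0.00840 to 0.0619 over the omissions).

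Of 7 endothelial genes, Vwf, the clotting protein von Willebrand factor, rose by 0.55 ± 0.088 (limma adjusted p = 0.000994) and Cldn5, a tight junction protein, fell, with a change of -0.50 ± 0.15 (limma adjusted p = 0.0294), which missed the threshold once array 300, 327, 329 or 330 was omitted (limma adjusted p 0.0184 to 0.0806 over the omissions). Without Exercise arrays 306, 309 and 310 both passed, at 0.45 and -0.77. Of 7 melanocyte genes 0 passed limma's test; Tyr differed by -0.17 (limma adjusted p = 0.0598) and Sox10 by -0.14 (limma adjusted p = 0.0935), and without those 3 arrays Sox10 was lower at -0.22 (limma adjusted p = 0.0264).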
